A study of Mus musculus with 6 samples.

Results

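Major histocompatibility complex (MHC) class II genes were examined in liver non-parenchymal cells of wild type and SRA-/- mice after acetaminophen. The set held 10 genes, chosen by name from the gene count files: the classical chains H2-Aa, H2-Ab1 and H2-Eb1, the invariant chain Cd74, the DM chains H2-DMa, H2-DMb1 and H2-DMb2, the DO chains H2-Oa and H2-Ob, and the transactivator Ciita. All 10 were among the 53546 genes counted, and all 10 were among the 20541 genes that passed the filter on low counts. Both groups were male mice that received acetaminophen, a drug that injures hepatocytes at high doses, by intraperitoneal injection at 400 mg/kg, and their cells were taken 6 h later. One group of 3 libraries came from wild type mice, the reference, and the other 3 from SRA-/- mice. These are deficient in scavenger receptor A (gene Msr1), a macrophage receptor for modified lipoproteins and other polyanions. The study asked how the receptor bears on liver inflammation after the drug. The sources used here do not give the strain, the age or the disrupted part of Msr1, and every library is from a treated mouse, so no value below is a response to the drug.

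Gene counts per library summed to between 23757203 and 44003902. Msr1 itself had 1123 to 3838 counts in wild type and 925 to 1848 counts in SRA-/- libraries. In CPM (counts scaled to the size of the library) it had 38.6, 73.5 and 114 in wild type replicates 1, 2 and 3. In SRA-/- replicates 1, 2 and 3 it had 40.2, 33.6 and 42.0 CPM. A count over the whole gene cannot tell an intact transcript from a disrupted one. The labelled cell fraction was checked by its markers. All 5 markers of sinusoidal endothelial cells, all 6 of Kupffer cells and all 5 of stellate cells had counts in every library. Hepatocyte markers were also present, with 6 genes summing to 23528 to 72594 CPM in wild type and 42761 to 88936 CPM in SRA-/- libraries. Markers of pancreatic acinar cells, which the liver should lack, summed to 307 to 602 CPM in wild type libraries, and to 0.979, 216 and 0.772 CPM in SRA-/- replicates 1, 2 and 3. Library sizes for CPM were adjusted with TMM factors. Each mate of a read pair was counted, so 6 counts stand for about 3 fragments and correspond to 0.131 to 0.272 CPM.

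Class II molecules display peptides from endocytosed proteins to CD4 T cells. An alpha and a beta chain pair in the endoplasmic reticulum with the invariant chain, which blocks the groove and steers the complex to endosomes, where proteases trim it. DM then exchanges the remaining fragment for other peptides, and DO restrains DM, mostly in B cells. Transcription of these genes is governed by CIITA, which does not bind DNA itself but docks on factors bound to a conserved promoter module that includes an X box and a Y box. In the liver, B cells, dendritic cells and macrophages carry most class II, and sinusoidal endothelial cells can carry it at a lower level.

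The promoter module was looked for in the RefSeq promoter table (build GRCm38.p6), which held 8 windows of 7 of the 10 members. The missing entries were H2-Ab1, Cd74 and Ciita. In the 250 bases before each start site, 2 short runs were searched on both strands: AACNNATGA, which lies across the end of the X box, and TGATTGG, the core of the Y box, an inverted CCAAT sequence. The runs do not overlap each other, and both were chosen after the members' promoters had been seen. Stretches of 64 bases, 5′ to 3′ on the strand of the gene, are given here to show what the members' promoters share, with both runs in capitals.
H2-Eb1: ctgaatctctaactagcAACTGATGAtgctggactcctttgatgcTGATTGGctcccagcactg
H2-DMb1: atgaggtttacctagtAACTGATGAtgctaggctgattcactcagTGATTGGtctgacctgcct
H2-DMb2: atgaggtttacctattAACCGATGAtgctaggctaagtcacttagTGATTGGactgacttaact
H2-Ob: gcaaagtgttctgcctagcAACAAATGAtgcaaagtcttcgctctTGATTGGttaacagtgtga
H2-Aa: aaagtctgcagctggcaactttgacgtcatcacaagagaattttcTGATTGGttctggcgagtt
H2-Oa: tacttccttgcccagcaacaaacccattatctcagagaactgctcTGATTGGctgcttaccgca
In GRCm38.p6 these lie at chr17:34305761-34305824 (plus strand) for H2-Eb1, chr17:34153083-34153146 (plus) for H2-DMb1, chr17:34145112-34145175 (plus) for H2-DMb2, chr17:34238801-34238864 (plus) for H2-Ob, chr17:34287855-34287918 (minus) for H2-Aa and chr17:34092289-34092352 (plus) for H2-Oa.

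Because the runs were chosen with these promoters in view, the shares given here are a description and no support. The Y run was in 6 of the 8 member windows, against 7.23% of 32851 promoter windows of the same length. The X run was in 4 of the 8, against 2.49% of all windows. Both together, with 10 to 30 bases between them, were in the windows of H2-Eb1, H2-DMb1, H2-DMb2 and H2-Ob and in 7 windows (0.0213%) in all. The distance between the runs was 19 bases in H2-Eb1, 20 in H2-DMb1 and H2-DMb2, and 17 in H2-Ob. The Y run began 45 to 92 bases before the start site. Neither run was in the 2 windows of H2-DMa. The stretches of H2-DMb1 and H2-DMb2 were identical at 55 of 64 bases (85.9%). Only transcript levels were measured in these libraries, not the promoters.

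Class II transcripts lay higher in SRA-/- than in wild type libraries in most members, by 1.73 to 2.35 fold in the 7 whose groups did not overlap, and none passed edgeR's test over all genes. Over the 10 members, 9 had a log2 fold change above 0, where 48.3% of all tested genes did, and the median was 0.87, against -0.01 over all genes. In 7 members, H2-Aa, H2-Ab1, H2-Eb1, Cd74, H2-DMb1, H2-Ob and Ciita, the SRA-/- libraries lay above the wild type libraries without overlap, which held for 3.97% of all tested genes. The same 7 had an unadjusted edgeR p under 0.05 and a higher level in SRA-/- libraries, as did 2.32% of all tested genes. By edgeR's adjusted p, 0 of the 10 were called, against 0.0487% of all genes (10 of 20541). DESeq2 called 2 of the 10, H2-Eb1 (adjusted p 0.0103) and H2-Aa (0.0332), and gave H2-Ab1 an adjusted p of 0.0581. It called 0.375% of the 18147 genes to which it gave an adjusted p. Limma-voom with quality weights called 0 of the 10, against 0.482% of all genes, with adjusted p of 0.100 for H2-Eb1 and 0.134 for H2-Aa and H2-Ab1. Members share regulators and cells of origin and are not independent of each other. They were also chosen with earlier results of these data known, so these shares are a description and no support. Without SRA-/- replicate 2 the number with an unadjusted p under 0.05 was 4 (H2-Aa, H2-Ab1, H2-Eb1 and H2-Ob) and the median log2 fold change 0.61. The share of all genes under that p was not taken in this run.

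The classical chains and the invariant chain were the most abundant members per exon length and stood at about double the wild type level in SRA-/- cells, with no wild type library reaching any SRA-/- library. H2-Ab1, the beta chain of the A molecule (chromosome 17, 34476663 to 34488393, plus strand, mm39 as for all gene positions that follow), had 34.3, 62.6 and 57.9 CPM in wild type replicates 1, 2 and 3 and 98.2, 146 and 89.6 CPM in SRA-/- replicates 1, 2 and 3. The groups did not overlap, the lowest library being wild type replicate 1 and the highest SRA-/- replicate 2. Its fold change was 2.15, or 1.11 ± 0.27 (SE) on the log2 scale, and edgeR's quasi-likelihood test gave a Benjamini-Hochberg adjusted p of 0.761 over all tested genes. H2-Aa, the alpha chain that pairs with it (34501718 to 34506797, minus strand), had 29.8, 50.9 and 42.8 CPM against 75.7, 119 and 74.1 CPM, a log2 fold change of 1.12 ± 0.26 (edgeR adjusted p 0.675). H2-Eb1, the beta chain of the E molecule (34524841 to 34535648, plus strand), had 25.7, 43.0 and 34.5 CPM against 67.7, 109 and 66.2 CPM. At 1.23 ± 0.26 it had the highest log2 fold change of the 10 members, with an edgeR adjusted p of 0.589. H2-Aa and H2-Eb1 each showed the same order of libraries at both ends as H2-Ab1 did.

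**Figure D1:**
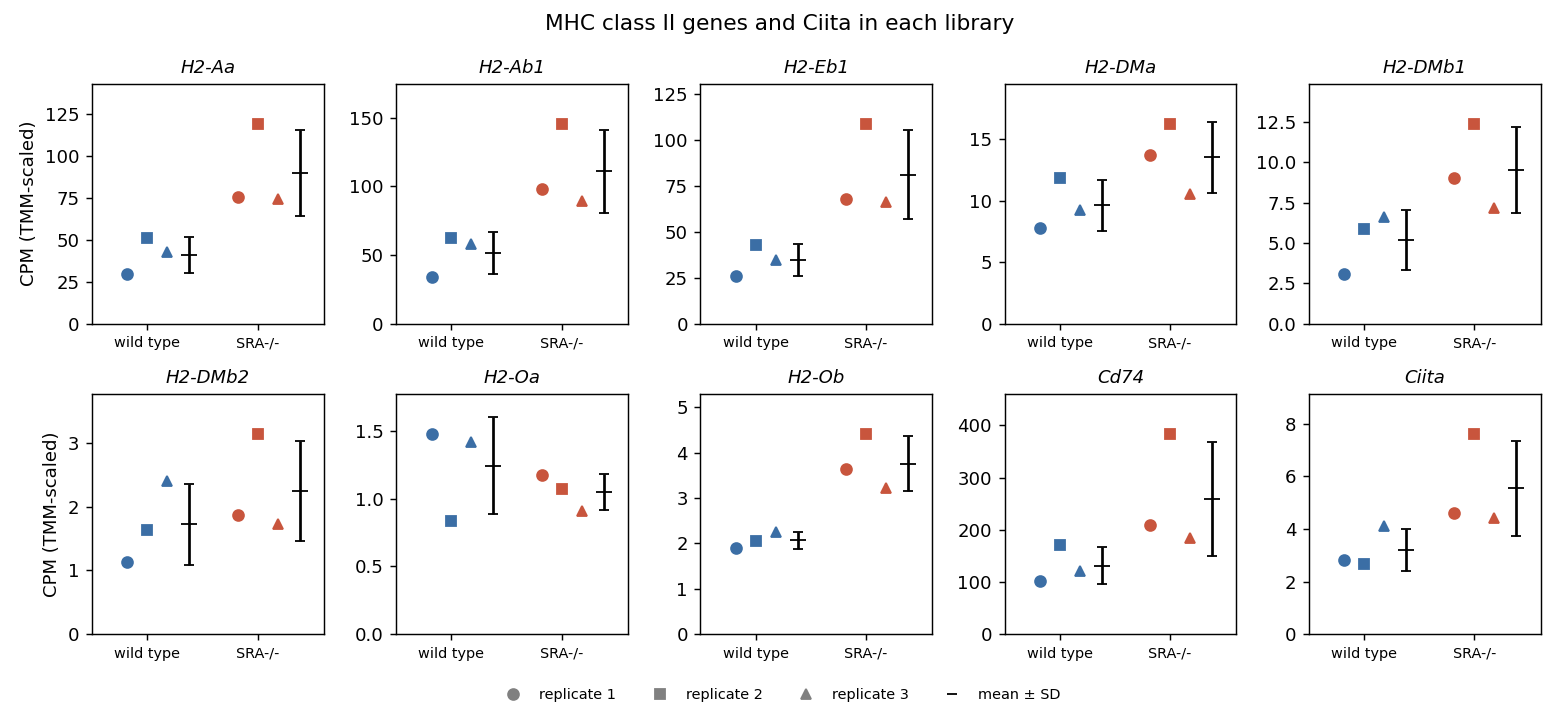
CPM (vertical axis, TMM-scaled, from 0) of each member in the 3 wild type and 3 SRA-/- libraries; markers give the replicate number and the bars beside them the mean ± SD. In 7 of the 10 panels every SRA-/- library lies above every wild type library, and SRA-/- replicate 2 is highest in all panels but that of H2-Oa.

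Cd74 encodes the invariant chain, the chaperone that also carries the placeholder fragment that DM removes. Its level was 102, 170 and 121 CPM in the wild type libraries and 208, 384 and 184 CPM in the SRA-/- libraries. SRA-/- replicate 2 stood apart at about double the other SRA-/- libraries, and the groups were close at their edges, 170 against 184 CPM. The log2 fold change was 0.98 ± 0.31 (edgeR adjusted p 0.9999), and it was 0.58 without SRA-/- replicate 2.

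The DM genes lay lower, and the groups overlapped in 2 of the 3. H2-DMb1, a beta chain of DM (34372046 to 34379204), had 3.09, 5.88 and 6.60 CPM in wild type and 9.03, 12.4 and 7.17 CPM in SRA-/- mice, without overlap. Its log2 fold change was 0.88 ± 0.32. H2-DMa, the alpha chain (34338515 to 34358075), had 7.80, 11.8 and 9.24 CPM against 13.8, 16.3 and 10.5 CPM, and SRA-/- replicate 3 lay within the wild type range. Its log2 fold change was 0.49 ± 0.24. H2-DMb2, the second DM beta gene (34362281 to 34370529), had 1.13, 1.63 and 2.40 CPM against 1.87, 3.14 and 1.72 CPM, so that the groups overlapped, with a log2 fold change of 0.38 ± 0.38. That of H2-DMb2 dropped to 0.06 when SRA-/- replicate 2 was left out and was 0.70 with wild type replicate 3 left out. None of these passed edgeR's test, each with an adjusted p of 0.9999.

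Counts of the DM beta genes carry a limit from their likeness. In GENCODE vM21 transcripts, 22.7% of the 50-base words of H2-DMb1 and 25.9% of those of H2-DMb2 were also in another gene, and reads that align to several places were not counted. H2-DMa shares 10.4% of its exon bases with Brd2 on the other strand, which had 11733 to 21694 counts, and counting ignored strand. The classical chains had no more than 0.514% of such words in another gene, and H2-Ob and Cd74 had 0%.

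The DO genes gave log2 fold changes of opposite sign in edgeR. H2-Ob, the beta chain of DO (34457877 to 34473388), had 1.89, 2.05 and 2.25 CPM in wild type and 3.63, 4.41 and 3.22 CPM in SRA-/- mice. The wild type libraries lay close together and all SRA-/- libraries above them, with a log2 fold change of 0.86 ± 0.26 (edgeR unadjusted p 0.00896, adjusted p 0.9999). H2-Oa, the alpha chain (34311314 to 34314208), had 1.48, 0.835 and 1.42 CPM against 1.18, 1.07 and 0.908 CPM, with counts of 20 to 54 per library. It was the 1 member with a log2 fold change below 0, at -0.24 ± 0.36, and its groups overlapped. Its sign depended on the tool, since limma-voom with quality weights gave 0.23. H2-Oa shares 22.8% of its exon bases with BC051537 on the other strand, which had 1 to 17 counts per library. Whether H2-Oa and H2-Ob differed in their change was not tested.

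Ciita, the master regulator of the set (chromosome 16, 10297923 to 10346282), had 2.82, 2.66 and 4.12 CPM in wild type and 4.61, 7.62 and 4.40 CPM in SRA-/- mice. The groups did not overlap, but wild type replicate 3, at 4.12 CPM, was close to SRA-/- replicate 3, at 4.40 CPM. The log2 fold change was 0.79 ± 0.31 (edgeR unadjusted p 0.0288, adjusted p 0.9999) and was 0.50 without SRA-/- replicate 2. Its counts were 70 to 228 per library.

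**Figure D2:**
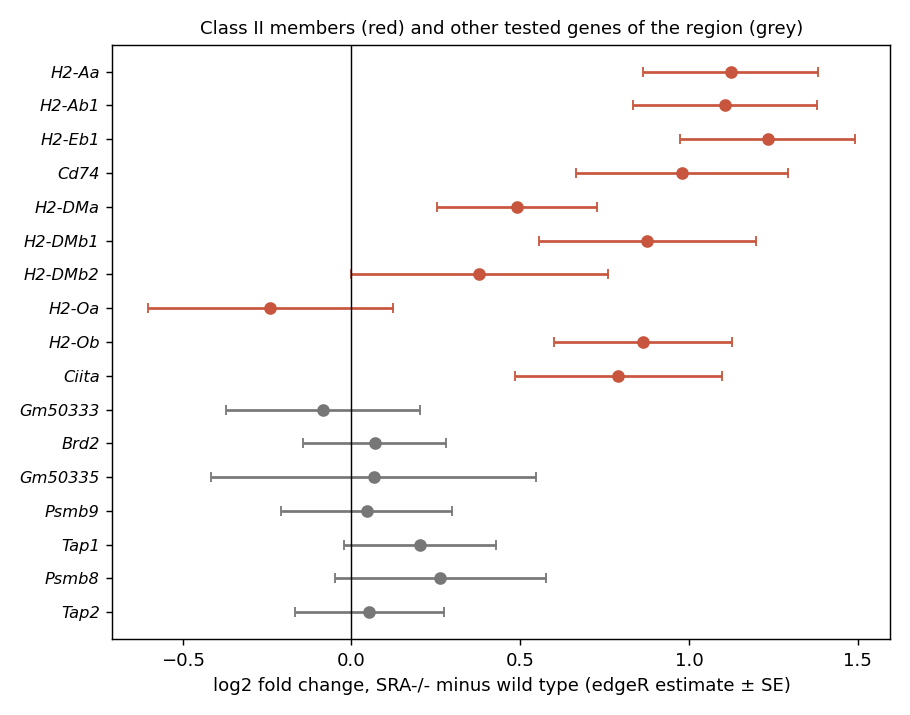
Log2 fold change (horizontal axis, SRA-/- minus wild type, edgeR estimate, bars ± SE) of the 10 members in red and of the 7 other tested genes of the class II region in grey. The 3 classical chains lie at 1.11 to 1.23, while the other genes of the region lie between -0.08 and 0.26.

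Per kilobase of exon, the order of the levels in wild type cells was Cd74 (78.2 ± 20.8 CPM per kb, SD, n = 3), H2-Ab1 (20.1 ± 5.92), H2-Eb1 (17.7 ± 4.46), H2-Aa (10.8 ± 2.80), H2-DMb1 (3.09 ± 1.10), H2-DMa (2.79 ± 0.595), H2-DMb2 (0.985 ± 0.365), H2-Oa (0.885 ± 0.253), H2-Ob (0.384 ± 0.0337) and Ciita (0.335 ± 0.0839). Neighbours whose wild type libraries overlapped were H2-Ab1 and H2-Eb1, H2-Eb1 and H2-Aa, H2-DMb1 and H2-DMa, H2-DMb2 and H2-Oa, and H2-Ob and Ciita. The libraries did not overlap between Cd74 and H2-Ab1, H2-Aa and H2-DMb1, H2-DMa and H2-DMb2, or H2-Oa and H2-Ob. Within every library of either group, the classical chains kept the order H2-Ab1, H2-Eb1, H2-Aa. H2-Eb1 per H2-Ab1 was 0.787 to 0.990 and H2-Aa per H2-Ab1 0.500 to 0.588. In SRA-/- cells Cd74 was at 154 ± 64.8, H2-Ab1 at 43.3 ± 11.8, H2-Eb1 at 41.6 ± 12.4 and H2-Aa at 23.6 ± 6.75 CPM per kb (SD, n = 3), in the same order.

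The members varied together from library to library. Wild type replicate 1 was the lowest library for 8 of the 10, and SRA-/- replicate 2 the highest for 9. The median member lay -0.75, -0.23 and -0.29 log2 units from its mean over the 6 libraries in wild type replicates 1, 2 and 3, and 0.32, 0.87 and 0.09 units from it in SRA-/- replicates 1, 2 and 3. Pearson's r of log2 CPM over the 6 libraries, which includes the difference between the groups, was between 0.68 and 0.998 for the 36 pairs without H2-Oa and between -0.52 and -0.04 for the 9 pairs with it. Ratios between chains were taken within each library. H2-Aa per H2-Ab1, each per exon length, was 0.546 ± 0.0440 in wild type and 0.545 ± 0.0207 in SRA-/- libraries (SD, n = 3 each), a ratio that no scaling of the library can move. H2-Eb1 per H2-Ab1 was 0.895 ± 0.102 against 0.957 ± 0.0413, and Cd74 per H2-Ab1 was 3.98 ± 0.703 against 3.47 ± 0.484, with overlap in both. The less abundant chains varied more: H2-DMb1 per H2-DMa was between 0.813 and 1.56 over the 6 libraries, H2-Ob per H2-DMb1 between 0.106 and 0.191, and H2-Oa per H2-DMa between 0.161 and 0.464, each with overlap between the groups.

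The other genes of the region were read beside the members. Of the members, 8 lie on chromosome 17 between H2-Oa and H2-Eb1. The same stretch, up to H2-Ea, holds 7 other tested genes, of which 0 were called by edgeR and 0 had an unadjusted p under 0.05. Tap1 and Tap2, the peptide transporters of class I presentation, had log2 fold changes of 0.20 ± 0.22 and 0.05 ± 0.22. Psmb8 and Psmb9, subunits of the immunoproteasome, had 0.26 ± 0.31 and 0.04 ± 0.25, and Brd2, a chromatin reader, 0.07 ± 0.21. Their median was 0.07, with overlap between the groups in all 7. Cd74, on chromosome 18 (60936920 to 60945724), and Ciita lie outside the region and had values near those of the classical chains and of H2-DMb1.

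Other genes of the pathway were read from lists chosen for their role, with earlier results of these data known. Of 38 listed genes, 36 were tested, 26 had a log2 fold change above 0, 0 were called by edgeR in either direction, and 4 had an unadjusted p under 0.05, all with higher values in SRA-/- libraries. Their median was 0.19. Over all tested genes, 48.3% lay above 0 and 0.0487% were called. Higher values in SRA-/- libraries came with an unadjusted p under 0.05 in 2.32% of all tested genes and without overlap in 3.97%. The untested pair were the remaining class II chains H2-Ea and H2-Eb2. H2-Ea, the alpha chain that pairs with the H2-Eb1 product and is silenced by a deletion in some inbred strains, had 1, 0 and 2 counts in wild type and 0 in each SRA-/- library. H2-Eb2 had 0.136 to 0.668 CPM over the 6 libraries.

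Among 6 endosomal enzymes of the path, 0 had an unadjusted p under 0.05 and the groups overlapped in each. Cathepsin S (Ctss), the main protease of the invariant chain in antigen-presenting cells, had 49.9, 131 and 130 CPM in wild type and 81.7, 117 and 64.2 CPM in SRA-/- mice (log2 fold change -0.24 ± 0.36). The thiol reductase Ifi30 had 0.38 ± 0.33 and cathepsin D (Ctsd) 0.23 ± 0.18. Marchf1, the ligase that marks class II for turnover, had 0.23 ± 0.33.

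Among the factors of the promoter module, Rfxank, a subunit of the X box complex, had 15.8, 14.9 and 10.2 CPM in wild type and 18.6, 17.4 and 24.8 CPM in SRA-/- mice, a log2 fold change of 0.57 ± 0.23 (edgeR unadjusted p 0.0331). Rfxank shares 33.8% of its exon bases with Nr2c2ap on the other strand. Its partners Rfx5 and Rfxap had 0.03 ± 0.21 and -0.20 ± 0.25, and of the Y box factors Nfyc had 0.30 ± 0.20. Of 12 factors upstream of Ciita, 9 had a log2 fold change above 0 and 3 below it. An unadjusted edgeR p under 0.05 was seen in 2 (2.32% of all tested genes, with higher values in SRA-/- libraries). The groups did not overlap in 3, with SRA-/- libraries higher (3.97% of all tested genes). Spi1, the PU.1 factor of myeloid and B cells, had 10.3, 20.5 and 22.0 CPM against 26.9, 31.2 and 24.3 CPM (0.64 ± 0.27), and Ifngr2, a chain of the interferon gamma receptor, 0.46 ± 0.20. Irf4, which also did not overlap, had 0.790, 2.32 and 2.99 CPM against 3.44, 5.48 and 3.13 CPM (0.98 ± 0.45). Interferon gamma itself (Ifng), the best known inducer of Ciita, was near the limit of counting in most libraries. It had 0.228 to 0.533 CPM in wild type and 0.272 to 1.27 CPM in SRA-/- mice (0.94 ± 0.62), with overlap. Irf1, which acts between the receptor and Ciita, had 0.19 ± 0.33.

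Each of the 7 costimulatory genes lay above 0 in log2 fold change (median 0.25), 0 had an unadjusted p under 0.05, and the groups overlapped in all but Pdcd1lg2. Cd86 had 0.25 ± 0.31, Cd274 0.38 ± 0.37 and Pdcd1lg2, at 0.137 to 0.499 CPM over the 6 libraries, 1.12 ± 0.52. Of the receptors that bind class II, the T cell coreceptor Cd4 had 2.37, 3.15 and 3.29 CPM in wild type and 3.29, 5.48 and 5.58 CPM in SRA-/- mice (0.70 ± 0.29), and the inhibitory receptor Lag3 had -0.10 ± 0.27.

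Genes of like pattern were ranked by Pearson's r over the 6 libraries with the mean profile of H2-Aa, H2-Ab1, H2-Eb1 and Cd74, among 13167 named genes with a mean of at least 1 CPM. The first 6 were Elmo1 (0.992), an engulfment adaptor, Gpnmb (0.988), a glycoprotein of lysosome-rich macrophages, Fasl (0.986), the death ligand of cytotoxic lymphocytes, Il2rb (0.983), a chain of the interleukin 2 receptor, Pilrb2 (0.982) and Ifngr2 (0.982). Gpnmb had 0.481, 1.14 and 1.07 CPM in wild type and 1.78, 4.04 and 1.91 CPM in SRA-/- mice. Il2rb had 15.3, 19.2 and 19.9 CPM against 25.4, 34.7 and 23.7 CPM. Each of these shares with the class II profile the lowest library, wild type replicate 1, and the highest, SRA-/- replicate 2, and since they were picked for that likeness, their group difference is no support for it.

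Markers of the cells that carry class II were read beside the members. In bulk RNA, fewer cells of a type and less RNA per cell cannot be told apart. B cell markers summed to 12.6 to 17.1 CPM in wild type and 23.1 to 33.1 CPM in SRA-/- mice, without overlap and highest in SRA-/- replicate 2. Of the 8, all had log2 fold changes above 0, and Cd79a and Pax5 were among those with an unadjusted edgeR p under 0.05. The groups did not overlap in 4 of the 8, and overlapped in Fcer2a, Blk, Ms4a1 and Cr2, the last at 0.11 ± 0.50. Over all tested genes, 48.3% lay above 0 in log2 fold change. Higher values in SRA-/- libraries came with such a p in 2.32% and without overlap in 3.97%. The marker lists were chosen with earlier results of these data known, so these counts are a description. Dendritic cell markers summed to 45.6 to 56.5 CPM and 46.4 to 55.6 CPM, with 4 of 9 above 0. Within that list, the integrin Itgax had 2.82, 2.28 and 2.96 CPM against 7.16, 6.08 and 5.76 CPM and the migration receptor Ccr7 2.54, 2.28 and 2.69 CPM against 4.09, 6.85 and 3.77 CPM, while Flt3, Clec9a and Cd209a overlapped between the groups and Zbtb46 lay lower in all SRA-/- libraries (-0.34 ± 0.17). Kupffer cell markers summed to 401 to 1029.6 CPM and 601 to 1119 CPM, with 2 of 6 above 0.

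Ptprc, the CD45 gene of all leukocytes, had 37.5, 55.3 and 84.7 CPM in wild type and 79.7, 83.2 and 87.0 CPM in SRA-/- mice, and wild type replicate 1 was lowest. T cell markers, 5 of 5 above 0, summed to 5.60 to 8.53 CPM in wild type and 8.47 to 11.8 CPM in SRA-/- mice. Of all tested genes, 48.3% lay above 0. Monocyte markers, 2 of 4 above 0, summed to 4.02 to 7.64 CPM and 5.01 to 8.03 CPM. Within that list, Ccr2 had 1.31, 1.14 and 1.81 CPM against 2.63, 3.01 and 3.68 CPM (1.12 ± 0.31), while Ly6c2, Chil3 and F13a1 overlapped between the groups. Neutrophil markers, 5 of 5 above 0, summed to 11.99 to 31.7 CPM and 35.0 to 144 CPM, and were lowest among SRA-/- libraries in replicate 2. Sinusoidal endothelial markers, 0 of 5 above 0, summed to 1127 to 2096 CPM and 1151 to 1362 CPM. None of the markers of leukocytes or endothelial cells was at 0 counts in any library. SRA-/- replicate 2 also had the highest pancreatic sum of the SRA-/- libraries. In SRA-/- replicates 1 and 3, Cpa1, Pnlip, Prss2 and Clps were at 0 counts. Wild type replicate 3 had the highest pancreatic sum of the wild type libraries. It was the highest wild type library for H2-DMb1, H2-DMb2, H2-Ob and Ciita, and not for the classical chains, Cd74, H2-DMa or H2-Oa. The part of cell makeup, depth or pancreatic RNA in the members' values was not tested.

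**Figure D3:**
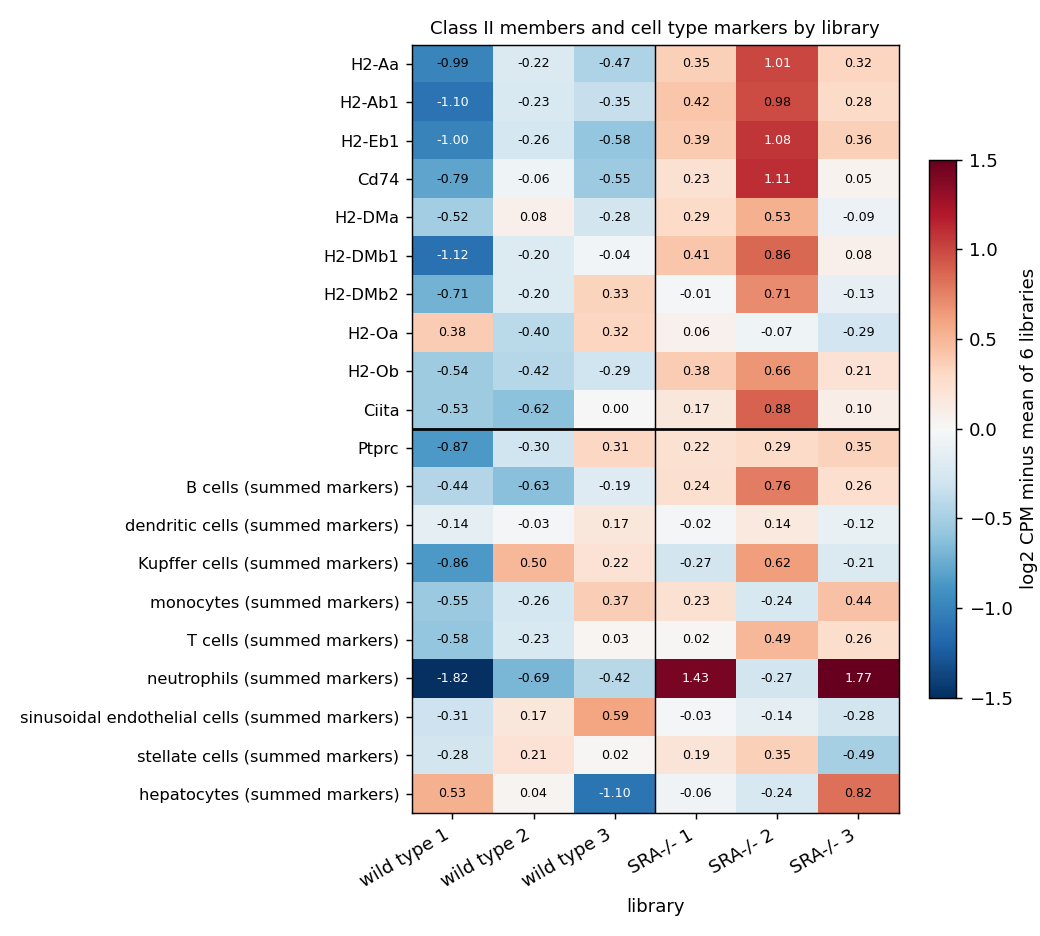
Log2 CPM minus its mean over the 6 libraries (colour and printed values; colours end at ±1.5) for the 10 members above the line and for Ptprc and 9 marker sums below it, by library. The members are mostly red in SRA-/- and mostly blue in wild type libraries. The row of B cell markers is blue in all wild type and red in all SRA-/- libraries. Dendritic cell markers lie between -0.14 and 0.17, a sum of which Zbtb46 makes 37.9% to 55.9%.

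H2-Ab1 was also set against leukocyte and cell type markers within each library. H2-Ab1 per Ptprc was 0.915, 1.13 and 0.684 in the wild type against 1.23, 1.75 and 1.03 in the SRA-/- libraries, with overlap. Per summed B cell markers it was 2.38, 4.97 and 3.38 against 4.25, 4.40 and 3.84, also with overlap, and the wild type libraries spread the wider. Per summed dendritic cell markers it was 0.751, 1.27 and 1.03 against 1.99, 2.62 and 1.93, and per summed Kupffer cell markers 0.0853, 0.0608 and 0.0685 against 0.163, 0.130 and 0.143, both without overlap. These sums rest on their most abundant markers, with Zbtb46 at 37.9% to 55.9% of the dendritic cell sum. Zbtb46 itself lay lower in all SRA-/- libraries, and whether it came from dendritic cells here was not tested. Taken against each marker alone, H2-Ab1 was higher in SRA-/- libraries without overlap for 5 of 9 dendritic cell markers, 5 of 6 Kupffer cell markers and 1 of 8 B cell markers (Fcer2a). It overlapped between the groups for the dendritic cell markers Itgax (12.2, 27.5 and 19.6 against 13.7, 23.96 and 15.5), Ccr7, Flt3 and Xcr1, and for the Kupffer cell marker Marco. H2-Ab1 itself did not overlap between the groups, so a marker that differs little between them can give a ratio without overlap. The share over all genes as denominators was not taken, and the difference between denominators was not tested. Ciita per Ptprc was 0.0573 ± 0.0155 in wild type and 0.0667 ± 0.0218 in SRA-/- libraries (SD, n = 3 each), with overlap. With 3 against 3 libraries an exact permutation test cannot give a two-sided p below 0.1, so these ratios are given as values.

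**Figure D4:**
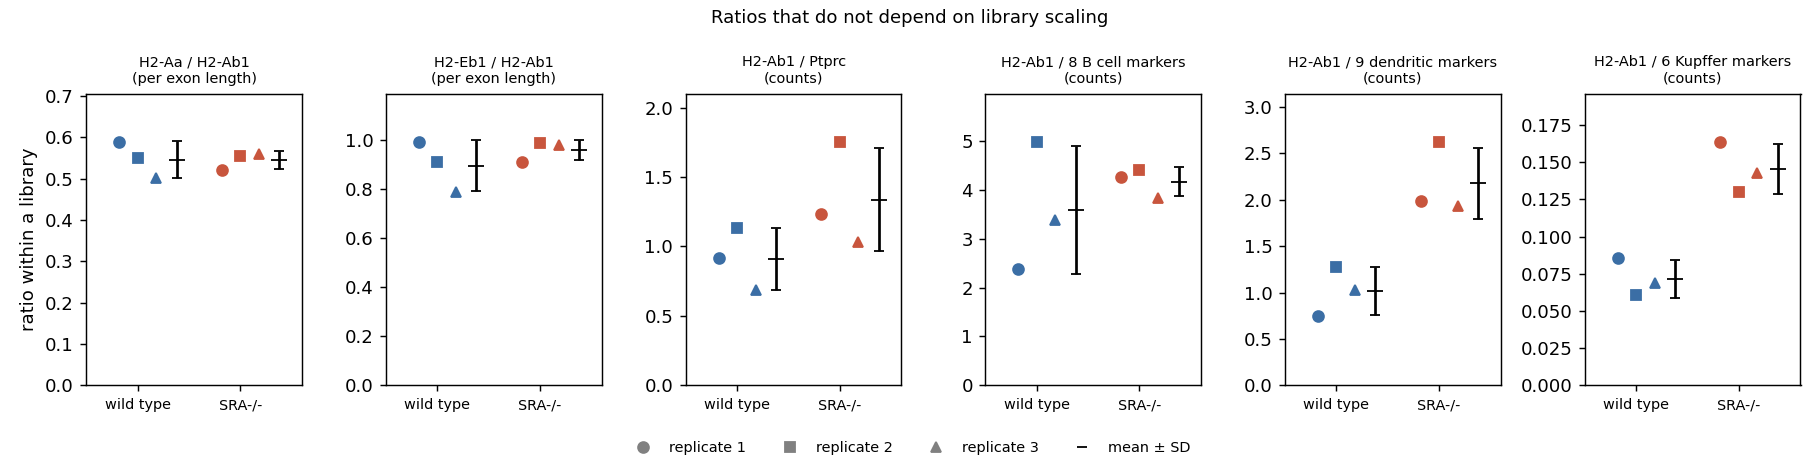
Ratios within each library (vertical axes, from 0) of class II chains to each other, per exon length, and of H2-Ab1 counts to Ptprc and to summed markers of 3 cell types; markers give the replicate number and bars the mean ± SD. H2-Aa per H2-Ab1 stays at 0.50 to 0.59 in all 6 libraries, and the ratios to the summed dendritic and Kupffer cell markers separate the groups while those to Ptprc and summed B cell markers overlap.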

How the data were processed

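Per the labels' protocols, total RNA of liver non-parenchymal cells was made into libraries after depletion of ribosomal RNA. Per the submitters' processing notes, STAR and featureCounts were used with build mm39. The authors ran featureCounts 2.0.2 on exons, summed by gene symbol in GENCODE vM26, per the file headers. The headers' command sets no strand and no multi-mapping option and counts each mate. What they deposited for every library is the raw count of each gene. The sources used here give no trimming step and no aligner version.

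Groups came from the titles, which call the replicates biological. Counts were analysed in R 4.3.3. After filterByExpr and TMM scaling, edgeR 4.0.16 (glmQLFit, robust, and glmQLFTest) was fitted on group alone over 20541 genes, with Benjamini-Hochberg adjustment and a threshold of 0.05. Each SE is the log2 fold change divided by the root of F. The biological coefficient of variation was 0.282 in common. CPM of every gene used the same scaled libraries, and centred log2 CPM a prior count of 2. Between any pair of libraries chi-square per degree of freedom was at least 30.9, so none was a copy. Alternatives were DESeq2 1.42.0 and its size factors, limma-voom (limma 3.58.1), library totals, other filters, removal of mitochondrial, hepatocyte and pancreatic genes, the replicate number as a block, and each library left out. The edgeR fit was also run on simulated counts, drawn for each gene on its own. These lack the counting of both mates and the correlation between genes of the real libraries, and no result here rests on them. The members and gene lists were chosen with earlier results of these data known. Named were all members, up to 2 genes per pathway list by p and others picked for their role or after their values were seen, the sums of the marker lists, and the 6 genes of most similar pattern. Some genes of the lists are counted but not reported here singly. Promoters were matched by symbol, and figures drawn with matplotlib 3.10.9.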

Additional observations from a re-analysis of the deposited data

How the results depend on the processing

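The number of the 10 members with a log2 fold change above 0 was 9 in every alternative run except limma-voom with quality weights, where it was 10 because H2-Oa turned to 0.23. The number called was 0 in all alternatives but 2: DESeq2's Wald test called 2, and edgeR without a low-count filter also called 2, in both cases H2-Eb1 and H2-Aa (adjusted p 0.0199 and 0.0482 with no filter). The median log2 fold change of the members ran from 0.61 without SRA-/- replicate 2 to 0.998 without SRA-/- replicate 3, with 0.73 by limma-voom. Over all genes the main count was 10. DESeq2 called 68 of the 18147 genes to which it gave an adjusted p (0.375%). Limma-voom called 99 of 20541 (0.482%) and edgeR without that filter 32 of 35174. Leaving out 1 library gave from 3 (without SRA-/- replicate 3) to 40 (without SRA-/- replicate 2) called genes, with 4 without wild type replicate 2 and 4 without SRA-/- replicate 1, and none of these calls was a member. With the replicate number as a block 5 genes were called and 0 members. Deviations of libraries with the same number correlated at -0.29, -0.14 and -0.13. With 3 libraries per group, centred on their own mean, these values cannot decide whether the number pairs them. No other call of a member changed. Depth limits H2-Oa most, with 20 to 54 counts per library.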
